A study of Mus musculus with 7 samples.

Results

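Extracellular ATP and adenosine genes encode the enzymes that break down ATP and adenosine outside the cell and the receptors that sense both. The 10 genes described here were taken by symbol from a table of raw read counts for 57010 genes, in which each symbol matched 1 row, and all 10 passed the filter on low counts. Poly-A RNA came from Tim4+ resident macrophages sorted from the peritoneal fluid of C57BL/6 mice, 4 libraries from day 12 after an injection of m204 MTO and 3 from steady state. The mice of the steady-state libraries are called control mice in the labels, with no mention of an injection. The labels do not spell out MTO, do not give the age of the mice and do not say whether cells of several mice were pooled. Live cells stained for CD11b, MHCII and Tim4 were sorted, and the labels give a purity above 97%. Peritoneal colorectal cancer is named in the title of the series, and the comparison asks how resident macrophages at day 12 differed from those of steady state.

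ATP released by stressed or dying cells acts as a danger signal on P2 receptors of macrophages. The ectonucleotidase CD39 converts ATP and ADP to AMP, and CD73 converts AMP to adenosine, which acts on P1 receptors and restrains many inflammatory responses of macrophages. Adenosine is removed by deamination to inosine or by uptake into cells.

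Libraries held 32077050 to 38586694 counts, and levels are CPM, counts relative to library size scaled with the TMM method, as mean ± SD over n = 4 day 12 and n = 3 steady-state libraries. A detection floor of 3 counts per library equals 0.0754 to 0.0958 CPM at that depth. Floors and counting intervals cover counting error only, since copies made by PCR are not independent molecules. The labels speak of biological replicates without naming the animals behind each library, so p-values cover only the spread among these libraries, which may be technical. In such bulk samples, fewer cells that carry a transcript and less of it per cell cannot be told apart. Markers of the labelled cell type were present but differed between the groups. Adgre1 and Itgam were higher at day 12 (edgeR adjusted p = 0.00239 and 0.0160), and Csf1r and Timd4, a marker of the sort, were lower (0.0304 and 0.00484). Adgre1 (F4/80) stood at 4734 ± 563 CPM at day 12 and 2573 ± 167 CPM in steady state, Csf1r at 1505 ± 95.7 and 2025 ± 186 CPM, Timd4 (Tim4) at 495 ± 114 and 963 ± 80.5 CPM, and Itgam (CD11b) at 2133 ± 361 and 1328 ± 124 CPM.

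At day 12, 5 of the 10 genes rose and 2 fell. The rise comprised all 3 adenosine receptor genes listed, Adora2a (6.38-fold), Adora2b (4.69-fold) and Adora3 (9.69-fold), and the CD73 gene Nt5e (2.32-fold). The ectonucleotidase gene Entpd3 also rose. It had no read in steady state and entered the test through its day 12 reads alone, so that a call could only be higher. The CD39 gene Entpd1 and the ATP-gated channel gene P2rx7 fell, to 0.645 and 0.684 of their steady-state levels. The ectonucleotidase gene Entpd2, the adenosine deaminase gene Ada and the ATP-gated channel gene P2rx4 did not pass. Calls are from edgeR's quasi-likelihood test at an adjusted p of 0.05 over all 15981 genes tested, of which 20.3% passed, 10.1% higher and 10.2% lower at day 12. The libraries of the groups did not overlap for the same 7 genes, 5 higher and 2 lower at day 12, against 16.5% of all tested genes higher and 18.5% lower without overlap. The median log2 fold change was 0.88 over the 10 genes and 0.00 over all tested genes. The 10 genes were chosen with earlier results of these data known, so these shares and medians are no test of the list.

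**Figure D1:**
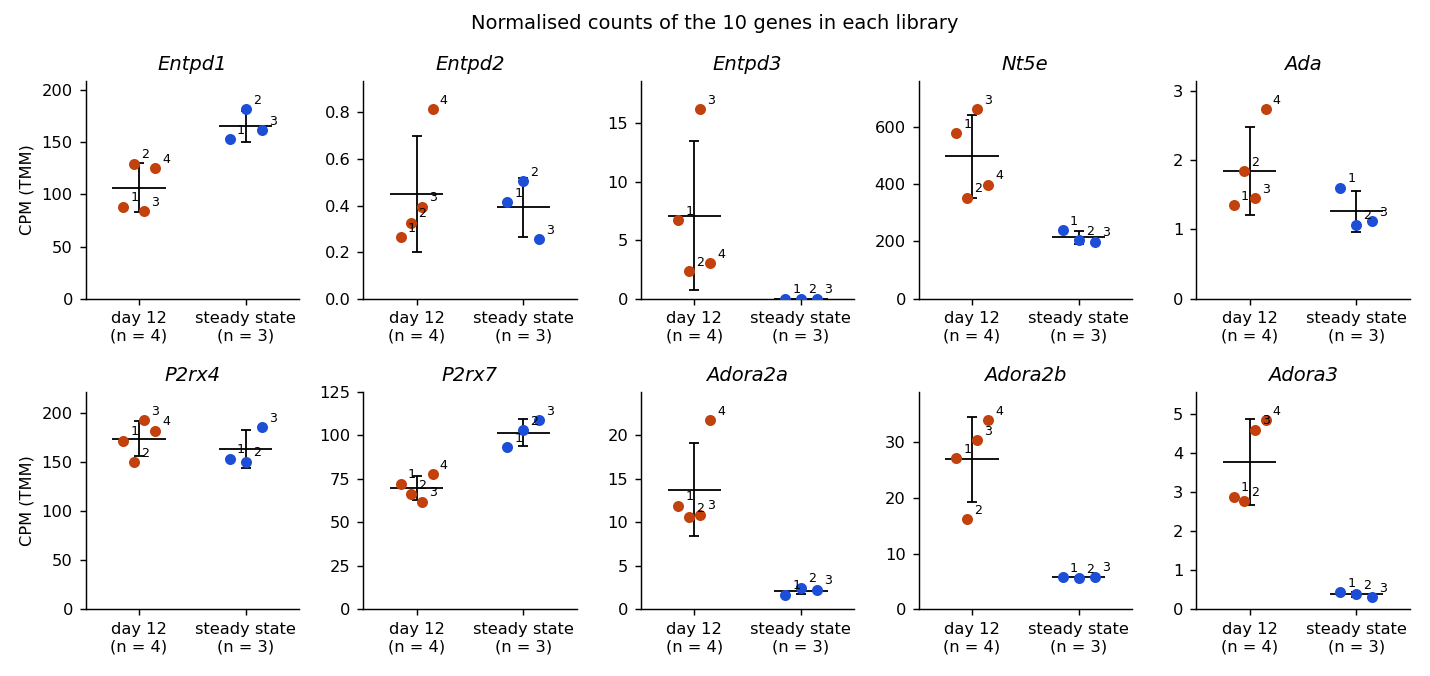
TMM-scaled CPM (vertical axes, each from 0) of the 10 genes in the 4 day 12 libraries (left, orange) and 3 steady-state libraries (right, blue). Points are libraries numbered by replicate, and lines are means with SD. For Nt5e, Entpd3 and the 3 adenosine receptor genes every day 12 library lies above every steady-state library, and for Entpd1 and P2rx7 every day 12 library lies below.

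Promoter sequences are shown for those rising genes that RefSeq's table of 300-base windows around start sites held, so that the sequences around their start sites can be read side by side. Windows were matched by symbol for 9 of the 10 genes, on build GRCm38.p6. The windows lie at chr9:120539568-120539867 for Entpd3, chr9:88327359-88327658 for Nt5e, chr11:62248734-62249033 for Adora2b and chr3:105904171-105904470 for Adora3, all on the + strand. Capitals mark letters TGANTCA (the AP-1 consensus), ACGTG and GCGTG (both cores of the hypoxia response element) on either strand.
Entpd3: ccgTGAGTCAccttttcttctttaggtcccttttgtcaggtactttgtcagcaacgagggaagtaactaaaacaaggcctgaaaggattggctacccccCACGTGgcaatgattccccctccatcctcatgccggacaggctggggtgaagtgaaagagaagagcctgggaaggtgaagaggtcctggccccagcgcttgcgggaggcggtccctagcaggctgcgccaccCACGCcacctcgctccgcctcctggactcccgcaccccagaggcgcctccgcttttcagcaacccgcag
Nt5e: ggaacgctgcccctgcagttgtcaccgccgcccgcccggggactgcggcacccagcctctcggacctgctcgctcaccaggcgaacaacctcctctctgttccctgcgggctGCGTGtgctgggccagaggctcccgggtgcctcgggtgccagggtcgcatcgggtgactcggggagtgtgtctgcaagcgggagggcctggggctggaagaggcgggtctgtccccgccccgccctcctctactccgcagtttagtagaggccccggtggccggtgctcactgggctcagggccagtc
Adora2b: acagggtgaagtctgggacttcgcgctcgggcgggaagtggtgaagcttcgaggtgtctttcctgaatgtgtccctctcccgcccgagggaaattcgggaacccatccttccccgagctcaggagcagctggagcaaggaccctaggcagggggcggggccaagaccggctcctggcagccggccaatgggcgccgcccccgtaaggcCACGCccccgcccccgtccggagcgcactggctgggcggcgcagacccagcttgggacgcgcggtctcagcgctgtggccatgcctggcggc
Adora3: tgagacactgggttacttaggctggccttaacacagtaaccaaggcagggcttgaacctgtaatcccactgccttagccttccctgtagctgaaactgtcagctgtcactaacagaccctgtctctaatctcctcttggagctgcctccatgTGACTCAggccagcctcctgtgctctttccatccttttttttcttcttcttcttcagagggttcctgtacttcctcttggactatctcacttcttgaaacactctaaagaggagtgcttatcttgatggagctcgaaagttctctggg
The windows of Nt5e and Adora2b consist of G and C to 71% and 70%, that of Entpd3 to 60.3% and that of Adora3 to 48.3%, where the median window of the table has 52.7%. TGANTCA lay in the windows of Entpd3 and Adora3, and also in those of P2rx7, which fell, and Entpd2, which did not pass, so in 4 of 9 genes against 7.81% of all 32851 windows. GCGTG lay in 6 of 9 (32.4% of all windows), among them Entpd3, Nt5e and Adora2b, and ACGTG in 2 of 9 (19.6%), Entpd3 and Entpd2. In Entpd3 the capitals CACGTG hold ACGTG on both strands, an overlapping pair. The GC box GGGCGG, not in capitals, lay in 6 of 9 (35.7% of all windows), with 6 matches in Adora2b and 4 in Nt5e. The cAMP response core TGACG lay in 2 of 9 (20.8%), Entpd1 and P2rx4, and the STAT consensus TTCNNNGAA in 1 of 9 (8.30%), Ada. Both strands were searched, the first listed window was counted for genes with several, and such matches describe letters and not binding.

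The enzymes at the head of the pathway went in opposite directions. Entpd1 encodes CD39, the main ATP- and ADP-hydrolysing enzyme on the surface of macrophages (ENSMUSG00000048120, GRCm39 chromosome 19, 40600810 to 40730046, + strand). It had 88.3, 129.5, 83.8 and 125 CPM in day 12 replicates 1 to 4, against 153, 182 and 162 CPM in steady-state replicates 1 to 3. The highest day 12 library lay below the lowest of steady state, and day 12 replicates 1 and 3 were lower than replicates 2 and 4. The log2 fold change was -0.63 (SE 0.17, 95% interval -1.02 to -0.25, edgeR adjusted p = 0.0284). The call was lost in 5 of the 7 fits with 1 library left out, while the log2 fold change stayed at -0.72 to -0.53 over all 7. Leaving out day 12 replicate 1 or 3 gave an adjusted p of 0.0734 or 0.0533. Without steady-state replicate 1, 2 or 3 it was 0.0759, 0.117 or 0.0837. The gene overlaps 3 pseudogenes or long non-coding genes of its strand, with at most 3 reads each in a library.

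Entpd3 encodes NTPDase3, a related surface enzyme that hydrolyses ATP and ADP (ENSMUSG00000041608, chromosome 9, 120368884 to 120397393, + strand). It had 254, 94, 615 and 104 reads in day 12 replicates 1 to 4, against no read in any steady-state library. This corresponds to 6.73, 2.36, 16.2 and 3.02 CPM, so that day 12 replicate 3 held more than the other day 12 libraries together. Set against a floor of 3 counts over the whole steady-state group (0.0298 CPM), the pooled day 12 level of 7.11 CPM was at least 239-fold higher, and the lowest day 12 library alone at least 79.3-fold. The gene passed (edgeR adjusted p = 0.0125), with adjusted p-values of 0.00110 to 0.0337 when 1 library was left out, but not with no filter on low counts (0.0857). Without a steady-state read it entered the filter through day 12 alone, so that a call or a gap between groups could only be higher. No other gene of the table overlaps it, nor Nt5e, Ada, Adora2a, Adora2b or P2rx4.

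Entpd2 encodes NTPDase2, which prefers ATP over ADP (ENSMUSG00000015085, chromosome 2, 25285886 to 25291333, + strand). It was close to the floor, with 10, 13, 15 and 28 reads at day 12 against 14, 18 and 8 reads in steady state, and the groups overlapped. The log2 fold change was 0.18 with a 95% interval of -0.90 to 1.26 (edgeR adjusted p = 0.8289), which allows folds from 0.537 to 2.39. It shares 1971 bases and the strand with Npdc1, which had at most 20 reads in a library, and its few reads are uncertain for that reason too.

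Nt5e encodes CD73, the surface enzyme that forms adenosine from AMP (ENSMUSG00000032420, chromosome 9, 88209250 to 88254145, + strand). It had 576, 352, 659.9 and 398 CPM in day 12 replicates 1 to 4, against 239.6, 204.4 and 199 CPM in steady state. All day 12 libraries were higher, and replicates 1 and 3 were higher than replicates 2 and 4. The fitted log2 fold change was 1.21 (SE 0.22, 95% interval 0.72 to 1.71, edgeR adjusted p = 0.00483), and the gene passed in all 13 alternatives. B cells also carry CD73, and their 7 markers (4 of which rose, none at 0 in all libraries) summed to 20.8 to 46.3 CPM at day 12 and 6.67 to 10.3 CPM in steady state. The B cell sum was highest in day 12 replicate 2 (46.3 CPM), the day 12 library with the lowest Nt5e. The part of B cells in the Nt5e result was not tested.

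Ada encodes adenosine deaminase, which turns adenosine into inosine inside and outside the cell (ENSMUSG00000017697, chromosome 2, 163568504 to 163592159, − strand). It was scarce, at 1.35, 1.83, 1.45 and 2.73 CPM in day 12 replicates 1 to 4, against 1.60, 1.06 and 1.12 CPM in steady state. The groups overlapped, and day 12 replicate 4 was the highest. The log2 fold change was 0.54 with a 95% interval of -0.17 to 1.25 (edgeR adjusted p = 0.266). The ratio of Nt5e to Ada reads within a library, which needs no scaling, was 426, 192, 456 and 146 in day 12 replicates 1 to 4 and 149.6, 192 and 178 in steady-state replicates 1 to 3. Only day 12 replicates 1 and 3 lay outside and above the steady-state range, and replicate 4 lay just below it.

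P2rx4 and P2rx7 encode ATP-gated cation channels that macrophages carry. P2X7 needs high ATP and triggers the NLRP3 inflammasome, whereas P2X4 responds to lower ATP and resides largely in lysosomes. Both genes lie on the + strand of chromosome 5, P2rx7 (ENSMUSG00000029468) at 122781974 to 122829495 and P2rx4 (ENSMUSG00000029470) at 122845607 to 122867801, with 16.1 kb between them. P2rx7 had 72.2, 66.3, 61.8 and 77.7 CPM in day 12 replicates 1 to 4, against 93.2, 103 and 109 CPM in steady state. No day 12 library reached the steady-state range. P2rx7 had a log2 fold change of -0.55 (SE 0.11, 95% interval -0.80 to -0.30, edgeR adjusted p = 0.00822), and the call held in all 13 alternatives, most narrowly without steady-state replicate 3 (adjusted p = 0.04998).

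P2rx4 had 171, 149, 192 and 181 CPM in day 12 replicates 1 to 4, against 153, 150.1 and 185 CPM in steady state. The ranges lay almost on top of each other. The log2 fold change was 0.09 with a 95% interval of -0.19 to 0.38 (edgeR adjusted p = 0.645), which allows folds from 0.878 to 1.30. The ratio of P2rx7 to P2rx4 reads within a library was 0.421, 0.444, 0.321 and 0.428 at day 12, against 0.609, 0.686 and 0.588 in steady state. That ratio did not overlap between the groups, and its mean at day 12 was 0.643 of the steady-state mean.

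All 3 adenosine receptor genes of the list rose. The products of Adora2a and Adora2b raise cAMP through Gs and dampen inflammatory cytokine release by macrophages, that of Adora2b with the lower affinity for adenosine, and the product of Adora3 couples to Gi. Adora2a (ENSMUSG00000020178, chromosome 10, 75152711 to 75170618, + strand) had 11.9, 10.6, 10.8 and 21.7 CPM in day 12 replicates 1 to 4, against 1.69, 2.49 and 2.27 CPM in steady state. Even the lowest day 12 library exceeded the highest of steady state several times over, and replicate 4 stood above the other three. Its log2 fold change was 2.67 (SE 0.30, 95% interval 1.99 to 3.36, edgeR adjusted p = 0.000517).

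Adora2b (ENSMUSG00000018500, chromosome 11, 62139810 to 62157279, + strand) had 27.1, 16.1, 30.3 and 33.9 CPM in day 12 replicates 1 to 4, against 5.72, 5.55 and 5.88 CPM in steady state. The steady-state libraries were nearly level, with a coefficient of variation of 2.90%, and replicate 2 was the lowest of day 12. Its log2 fold change was 2.23 (SE 0.24, 95% interval 1.69 to 2.77, edgeR adjusted p = 0.000389).

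Adora3 (ENSMUSG00000000562, chromosome 3, 105778174 to 105816242, + strand) had 109, 110, 175 and 167 reads in day 12 replicates 1 to 4, against 15, 14 and 10 reads in steady state. On the scaled level this was 3.78 ± 1.102 CPM at day 12 and 0.385 ± 0.0630 CPM in steady state, and the groups were far apart. Its log2 fold change was 3.28 (SE 0.32, 95% interval 2.55 to 4.01, edgeR adjusted p = 0.000254). The gene overlaps Tmigd3 on the same strand over 38024 bases, and reads common to both could not be split here, although Tmigd3 itself had at most 3 reads in a library. Mast cells are known for A3 in mice, and their 8 markers summed to 0.0263 to 0.905 CPM at day 12 and 0 to 0.119 CPM in steady state, with Tpsab1 at 0 throughout. The mast cell sum was highest in day 12 replicate 2 (0.905 CPM), the day 12 library with the lowest Adora3 level (2.76 CPM). The part of mast cells in the Adora3 result was not tested. Each of the 3 receptor genes passed in all 13 alternatives.

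**Figure D2:**
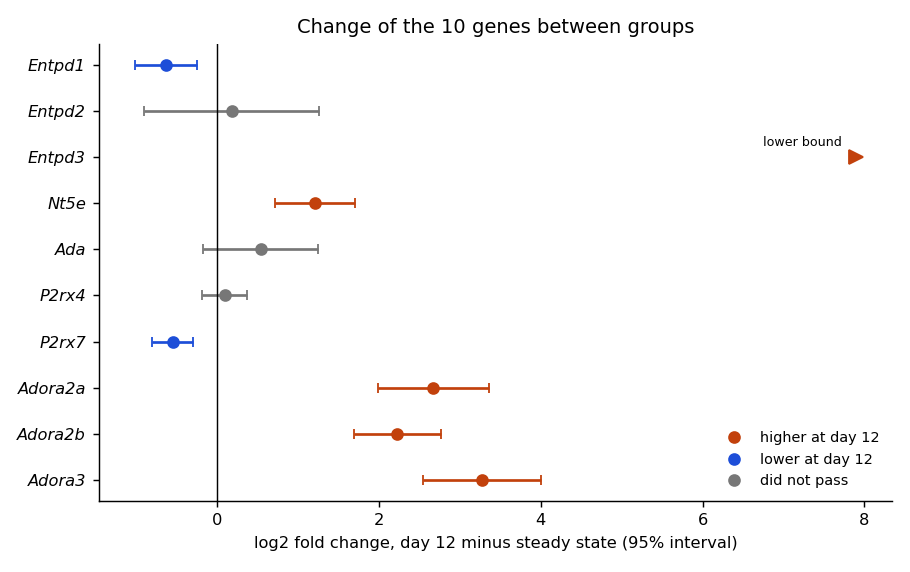
Fitted log2 fold changes, day 12 minus steady state (horizontal axis), with unadjusted 95% intervals for the 10 genes, coloured by call. Entpd3, without a steady-state read, is drawn as an arrow at its lower bound of 7.90, and the 3 receptor genes lie between 2.23 and 3.28.

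Levels of different genes were compared per length, as CPM per kb of merged exon (GENCODE M21 exon models, matched by gene identifier). At day 12 Nt5e was the most abundant of the 10, at 57.7 ± 16.9 CPM per kb, above P2rx4 at 24.7 ± 2.60 without overlap of their libraries. P2rx4, Entpd1 (19.1 ± 4.29), Adora2b (14.5 ± 4.16) and P2rx7 (11.6 ± 1.16) followed, and the ranges of each pair of neighbours in that order overlapped. Below them came Adora2a (4.49 ± 1.74), Entpd3 (1.88 ± 1.70), Adora3 (1.01 ± 0.296), Ada (0.919 ± 0.314) and Entpd2 (0.211 ± 0.116). Neighbours overlapped there as well, except P2rx7 above Adora2a and Ada above Entpd2.

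In steady state the order began with Entpd1 at 29.6 ± 2.64 CPM per kb, Nt5e at 24.9 ± 2.56 and P2rx4 at 23.2 ± 2.76, each overlapping its neighbour. P2rx7 (17.0 ± 1.32), Adora2b (3.10 ± 0.0897) and Adora2a (0.702 ± 0.135) were each apart from the gene above them. Adora2a overlapped Ada (0.630 ± 0.148), while Entpd2 (0.184 ± 0.0592), Adora3 (0.103 ± 0.0169) and Entpd3, without a read, closed the order, each below the one before it. The ranges of Entpd2 (0.120 to 0.237) and Adora3 (0.0857 to 0.119) missed each other narrowly, on few reads. Adora2b therefore stood below P2rx7 in every steady-state library, whereas their day 12 ranges overlapped.

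**Figure D3:**
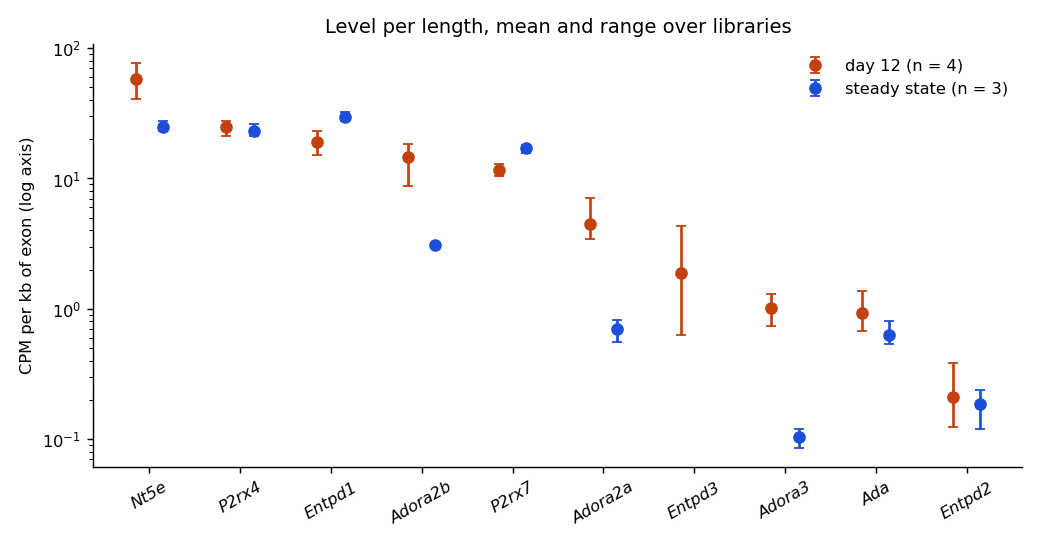
Level per length of the 10 genes (CPM per kb of merged exon, log axis), in the order of their day 12 means, with day 12 libraries (left, orange) and steady-state libraries (right, blue). Points are means and bars run from the lowest to the highest library. Entpd3 in steady state is 0 and is not drawn, and Nt5e at day 12 lies above all others.

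The day 12 libraries differed among themselves in several of these genes. Replicates 1 and 3 had more Nt5e and Entpd3 and less Entpd1 than replicates 2 and 4, while Ada was lower in replicates 1 and 3. Over all tested genes, replicates 1 and 3 were also the closest day 12 pair, with a chi-square per degree of freedom of 28.6, against 113 to 219 for the other day 12 pairs and 15.9 to 20.03 for steady-state pairs, where sampling noise alone gives about 1. Coefficients of variation at day 12 ran from 9.95% for P2rx7 and 10.5% for P2rx4 to 90.0% for Entpd3. P2rx7 and P2rx4 were thus the tightest of the 10 at day 12, and Entpd3 the widest.

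The other genes of the pathway, 42 in a list written out beside the 10, went both ways. Of these, 41 matched a symbol of the table and 28 could be tested. There were 6 higher (21.4%) and 5 lower (17.9%) at day 12, with a median log2 fold change of 0.04. Over all tested genes 10.1% were higher and 10.2% lower. None of the 3 tested genes of ATP release passed, among them the pannexin gene Panx1 at 7.57 ± 1.22 CPM at day 12 and 10.1 ± 1.31 CPM in steady state (edgeR adjusted p = 0.112). Of the other ectonucleotidase and phosphatase genes, 1 of 7 rose, Entpd6, whose product hydrolyses nucleoside diphosphates, at 26.3 ± 4.23 CPM at day 12 and 17.7 ± 0.750 CPM in steady state (log2 fold change 0.58, adjusted p = 0.0178). Leaving out steady-state replicate 1, 2 or 3 ended the call (0.0529, 0.0809 and 0.0795). Cd38 and Bst1, both NAD-consuming surface enzymes, did not pass, at 101 ± 17.7 CPM at day 12 and 119.8 ± 24.4 CPM in steady state for Cd38 (adjusted p = 0.334) and 312 ± 104 and 243 ± 47.6 CPM for Bst1 (adjusted p = 0.356). Bst1 overlaps the more deeply covered Fbxl5 of the opposite strand, and since it is not stated whether counting used strand its reads are uncertain.

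Among genes that clear adenosine or handle inosine, 3 of 9 rose and 2 fell, against 10.1% higher and 10.2% lower over all tested genes. Slc28a2, a concentrative transporter that takes up adenosine, had 199.7, 212, 179 and 187 CPM in day 12 replicates 1 to 4, against 91.7, 89.9 and 83.4 CPM in steady state. Every day 12 library lay well above every steady-state library, with a log2 fold change of 1.14 (SE 0.10, edgeR adjusted p = 0.000179). Pnp, the phosphorylase that splits inosine, stood at 86.9 ± 6.31 CPM at day 12 and 51.5 ± 4.18 CPM in steady state (log2 fold change 0.75, adjusted p = 0.00136), but overlaps its near-identical copy Pnp2 on the same strand, so that its share of reads is uncertain. Dpp4, which binds adenosine deaminase in humans, rose on few reads, with 13, 35, 11 and 17 reads at day 12 against 2, 4 and 0 reads in steady state (adjusted p = 0.0205). It entered the filter through its day 12 reads alone. Leaving out steady-state replicate 1 or 3 gave an adjusted p of 0.0783 or 0.0662, and its log2 fold change of 3.02 became 2.49 to 3.89 when 1 library was left out.

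Adenosine kinase (Adk), which returns adenosine to AMP inside cells, fell, with 17.4, 25.8, 17.4 and 20.4 CPM in day 12 replicates 1 to 4, against 33.5, 44.5 and 32.0 CPM in steady state. Its libraries did not overlap (log2 fold change -0.86, SE 0.17, edgeR adjusted p = 0.00819). Slc29a3, a nucleoside transporter of lysosomes and other organelles, stood at 41.7 ± 4.28 CPM at day 12 and 57.1 ± 5.18 CPM in steady state (log2 fold change -0.45, adjusted p = 0.0223). It no longer passed when steady-state replicate 1 (0.0894) or 3 (0.110), or day 12 replicate 1 (0.0571) or 2 (0.0579), was left out. Ampd3, an AMP deaminase, did not pass (adjusted p = 0.578) and overlaps Rnf141 of the opposite strand.

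Among the genes listed as P2Y receptors, most of them G protein-coupled sensors of nucleotides, 2 of 8 rose and 3 fell. The shares over all tested genes were 10.1% higher and 10.2% lower. The 8 include P2ry10 and P2ry10b, which bear the name but are not established nucleotide sensors. Neither passed (edgeR adjusted p = 0.668 and 0.877). P2ry6, the UDP receptor, had 1.404, 2.36, 1.13 and 3.31 CPM in day 12 replicates 1 to 4, against 7.47, 8.85 and 11.8 CPM in steady state. The ADP receptor gene P2ry13 had 9, 30, 6 and 15 reads at day 12 against 83, 81 and 106 reads in steady state, and entered the filter through its steady-state reads. Log2 fold changes were -2.19 (SE 0.35, edgeR adjusted p = 0.00263) for P2ry6 and -2.75 (SE 0.45, adjusted p = 0.00302) for P2ry13. P2ry12, a further ADP receptor, stood at 8.12 ± 1.25 CPM at day 12 and 15.7 ± 2.91 CPM in steady state (log2 fold change -0.95, adjusted p = 0.00485). P2ry12 and P2ry13 both lie within Med12l of the opposite strand, which had at most 10 reads in a library. Platelets carry P2Y12, and 6 platelet markers summed to 16.02 to 81.2 CPM at day 12 and 465 to 697 CPM in steady state. Nearly all of that sum was Pf4, at 35.2 ± 31.1 CPM at day 12 and 568 ± 118 CPM in steady state. Itga2b stood at 0.615 ± 0.231 and 0.631 ± 0.146 CPM and did not pass (edgeR adjusted p = 0.960). Ppbp, Gp9 and Treml1 fell short of the filter on low counts, and Gp1bb was at 0 throughout. The part of platelets in the P2ry12 result was not tested.

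The rising P2Y genes were P2ry2, the receptor for ATP and UTP that guides phagocytes, and P2ry1, an ADP receptor. P2ry2 stood at 52.2 ± 18.95 CPM at day 12 and 28.1 ± 3.95 CPM in steady state (log2 fold change 0.89, edgeR adjusted p = 0.0328), and P2ry1 at 32.0 ± 7.83 and 18.8 ± 4.66 CPM (0.77, adjusted p = 0.0397). Both calls were lost without any 1 of the steady-state replicates, with adjusted p-values of 0.0690, 0.101 and 0.126 for P2ry2 and 0.0778, 0.146 and 0.0677 for P2ry1, in the order of replicates 1, 2 and 3. For P2ry1 the same held without day 12 replicate 1 (0.0783) or 3 (0.0756), and for P2ry2 with no filter on low counts (0.0663). The 1 tested further P2X gene, P2rx1, stood at 63.5 ± 11.7 CPM at day 12 and 62.2 ± 14.5 CPM in steady state and did not pass (adjusted p = 0.930). The A1 receptor gene Adora1 had a single read over all 7 libraries.

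**Figure D4:**
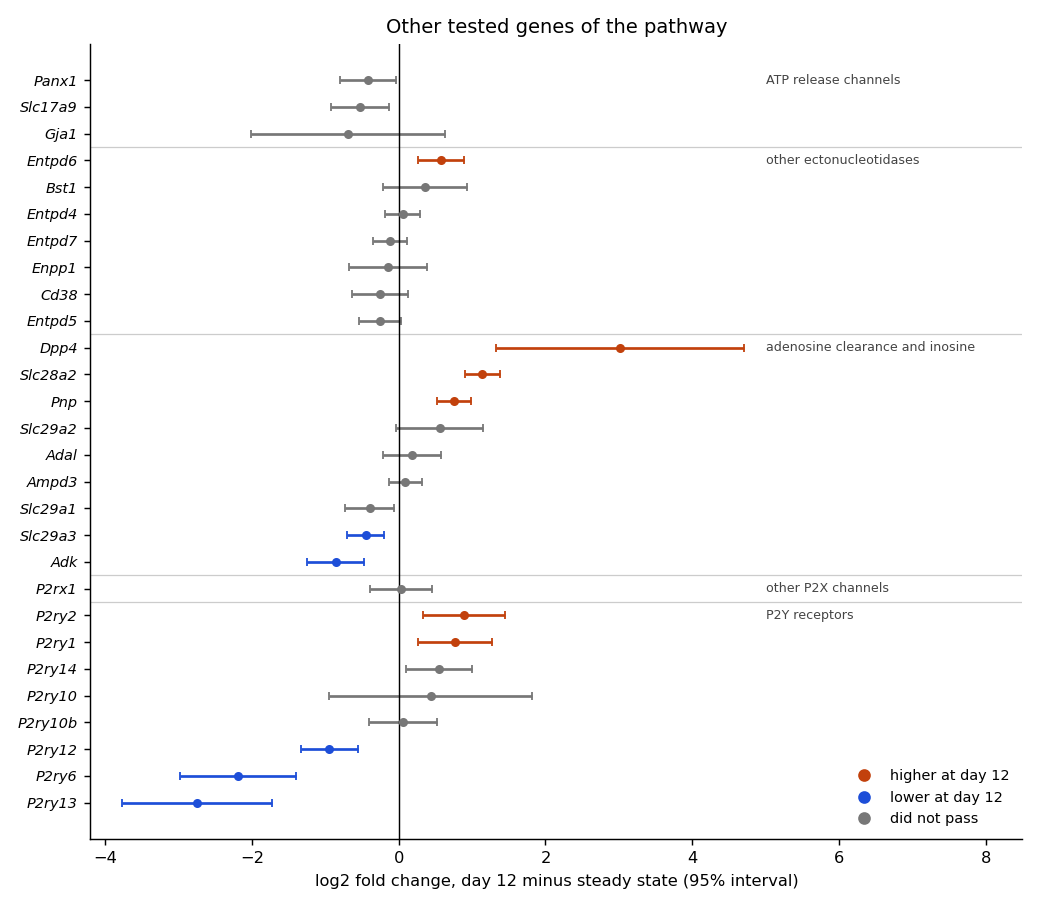
Fitted log2 fold changes, day 12 minus steady state (horizontal axis), with unadjusted 95% intervals for the 28 tested genes of the wider pathway, grouped by role and coloured by call. There are 6 higher genes (orange) and 5 lower genes (blue), with P2ry13 the lowest at -2.75 and Dpp4 the highest at 3.02.

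Markers of other cells that the sort could hold were low beside those of macrophages, which summed to 9635 to 10991 CPM at day 12 and 7914 to 8329 CPM in steady state over 8 genes. Sums were 0.609 to 2.61 CPM at day 12 and 0.448 to 0.771 CPM in steady state over 8 T and NK cell markers, and 1.67 to 3.05 against 1.01 to 1.41 CPM over 7 neutrophil markers with Ly6g and Mpo at 0. Over 6 eosinophil markers they were 1.63 to 2.34 CPM at day 12 and 1.75 to 1.88 CPM in steady state, with Epx, Prg2 and Ear1 at 0. Among these Siglecf rose (edgeR adjusted p = 0.0262), while Ccr3 was lower on average and did not pass (0.0825). Over 8 mesothelial and stromal markers the sums were 0.729 to 0.980 CPM at day 12 and 0 to 0.192 CPM in steady state, with Msln at 0. Col1a2 rose on few reads (adjusted p = 0.00500). Over 8 epithelial markers, with Krt20 at 0, the sums were 4.398 to 6.37 CPM at day 12 and 2.08 to 2.52 CPM in steady state. Most of that was Lgals4, which did not pass (adjusted p = 0.0898), and Cdh1, which rose from 0.129 to 2.00 CPM (adjusted p = 0.000295). Cdh1, like Col1a2, entered the filter through its day 12 reads alone. Epcam, Krt8, Cdh17 and Vil1 had at most 4 reads in a library, and Krt18 did not pass (edgeR adjusted p = 0.0697). The part of these cells in the rise of Entpd3, which stood at 2.36 to 16.2 CPM at day 12, was not tested. Over 6 dendritic cell markers the sums were 65.0 to 379 CPM at day 12 and 29.6 to 54.7 CPM in steady state, most of it Cd209a, with Siglech at 0. Cd209a did not pass (edgeR adjusted p = 0.0612). Zbtb46, of the same list, stood at 5.25 ± 1.02 CPM at day 12 and 5.32 ± 0.432 CPM in steady state. Flt3, Clec9a and Xcr1 fell short of the filter on low counts, and each was highest in replicate 2 among the day 12 libraries. The dendritic sum, through Cd209a, was higher in day 12 replicates 1 and 3, the libraries with more Nt5e and Entpd3, than in replicates 2 and 4. The part of dendritic cells in those results was not tested.

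**Figure D5:**
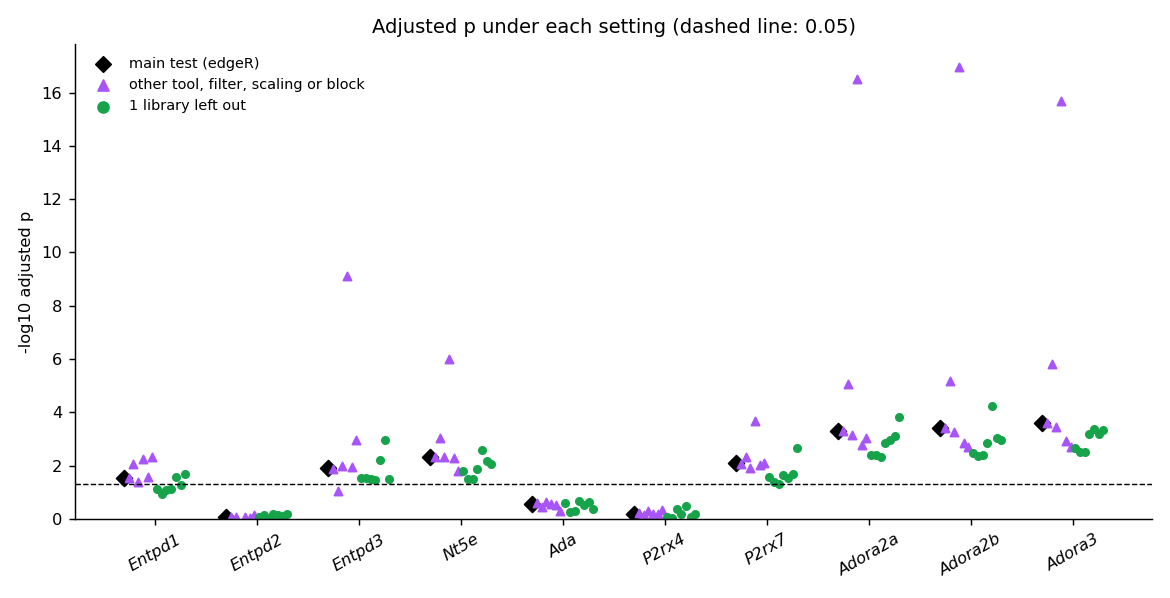
Adjusted p on a -log10 scale (vertical axis) for each of the 10 genes under edgeR's main test (diamond), with 1 library left out (circles) and with another tool, filter, scaling or the replicate block (triangles). The dashed line marks 0.05. Entpd1 crosses it in 5 fits with 1 library left out and Entpd3 in the fit without a filter, while Nt5e, P2rx7 and the 3 receptor genes stay above it throughout.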

How the data were processed

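The deposited table holds raw read counts per gene, without normalisation, 1 column per library, with Ensembl identifiers and GRCm39 coordinates. Per the submitters' processing notes, the tools were DESeq2 1.40.2, featureCounts of Subread 2.0.6, STAR 2.7.11a and SAMtools 1.10. Annotation release, strand setting and treatment of multi-mapping reads are unstated: not given in the sources used here. This leaves overlapping or copied genes uncertain. Titles gave groups and replicate numbers, and the extract protocol names 3 replicates per condition where the titles give 4 for day 12. Genes entered by filterByExpr (minimum count 10, minimum total 15). The test was edgeR 4.0.16 (quasi-likelihood, robust, TMM, R 4.3.3) with Benjamini-Hochberg adjustment over all 15981 genes tested at 0.05. A standard error is the absolute log2 fold change over the root of F. The alternatives used limma-voom (limma 3.58.1), DESeq2 1.42.0, other filters and scaling, a replicate block and leaving out each library. No pair of libraries in a group was alike within sampling noise. The procedure was tested on simulated data in which every gene had the same relative spread. There it recovered 2.41% of genes changed 1.5-fold, 50.8% of those changed 2-fold and 96.6% of those changed 4-fold. It made 6 false calls among 94, and small changes were thus mostly missed there. The 10 genes, the wider list, the markers and the tests were chosen with earlier results of these data known. Genes named are all 10, every called gene of the wider list, its 4 most abundant uncalled genes and 4 sort or macrophage markers. Panx1, Slc17a9, Adora1, P2ry10, P2ry10b, the single markers of other cell types (Pf4, Cd209a and others) and genes at 0 were named after their values were seen. In the wider list, 1 symbol did not match the table and is not used here.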

Additional observations from a re-analysis of the deposited data

Results flagged for a closer look

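In 3 of the 27 sets of 4 day 12 libraries examined (the 10 genes, 15 named genes of the wider list and both read ratios), a single library stood apart from the other three by more than the 95% critical gap of Dixon's test. Chance alone flags about 1 set in 20. Adora2a stood at 21.7 CPM in day 12 replicate 4, with a gap of 0.882 of the range, and its log2 fold change without that library was 2.37. P2ry12 stood at 9.98 CPM in day 12 replicate 2 (0.853 of the range). Cd38 stood at 127 CPM in the same library (0.855 of the range).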

How the results depend on the processing

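Of 129 values of the 10 genes over 13 alternatives, 120 kept their direction and their side of the threshold, 6 lost the call and 3 changed sign. The 6 belong to Entpd1 and Entpd3, as given with these genes, and the 3 to Entpd2, which did not pass in any alternative: its log2 fold change was -0.24 with the replicate block and -0.25 to 0.40 when 1 library was left out, below 0 without day 12 replicate 4 (-0.25) or steady-state replicate 3 (-0.05). The count of higher genes stayed at 5 in each fit with 1 library left out, and that of lower genes was 1 to 2. For the wider list those fits gave 2 to 6 higher genes, with 2, 3 and 2 without steady-state replicates 1, 2 and 3. P2rx1, likewise never passing, was at -0.062 with the replicate block and at -0.15 to 0.18 when 1 library was left out, below 0 without day 12 replicate 4 (-0.08) or steady-state replicate 2 (-0.15). Over all genes, 1868, 1804 and 1761 were called without steady-state replicates 1, 2 and 3, against 3242 with all libraries and a range of 1761 to 4599 over the 7 such fits. With no filter 4 of the 10 genes were higher. The alternatives for named genes of the wider list were added after the data were seen. Same-numbered libraries did not deviate together (correlations -0.14, 0.01 and 0.20), so the numbers were not taken as pairs. The replicate block gave 4278 called genes, 5 higher and 2 lower among the 10, and 6 higher and 7 lower in the wider list. No steady-state library bears the number of day 12 replicate 4, so that library did not inform the fold changes of this setting.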
